A study of Mus musculus with 11 samples.

Results

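BV2 is an immortalised mouse microglial cell line, and the comparison described here is its response to lipopolysaccharide (LPS) when the cells carry a control siRNA. The comparison takes the 3 libraries labelled siScr and LPS against the 3 labelled siScr and untreated, 6 of the 11 libraries in the series, and it was chosen by these labels, not by any measured value. Both groups were transfected with a non-targeting siRNA by lipofection and, 48 h later, moved from growth medium with 10% serum to medium with 5% serum. LPS-treated cells received 1 µg/ml LPS for 3 h, and untreated cells received none. The other 5 libraries come from cells given siRNA against Tet2, an enzyme that oxidises 5-methylcytosine in DNA, of which 3 were untreated and 2 received the same LPS. Every group is the BV2 line, so it stands for a cultured line and not for microglia in tissue.

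LPS is a component of the outer membrane of Gram-negative bacteria and is recognised by Toll-like receptor 4 with its co-receptors. From the cell surface the receptor signals through MyD88 to NF-kB and the MAP kinases, and from endosomes it signals through TRIF to the transcription factor IRF3 and the gene of interferon beta. Secreted interferon then acts back on the cells through the receptor IFNAR, JAK kinases and a transcription factor complex that includes IRF9, and this relay induces a large set of antiviral genes. In microglia, the resident macrophages of the brain, the early response is known for cytokines, chemokines, nitric oxide synthase and prostaglandin synthesis.

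The 6 libraries held 8764031 to 23030426 reads on genes, and the smallest was replicate 3 of the untreated cells. That library detected 16406 genes against 13717 to 14172 in the other 5, so some results that rest on it are given with and without it. Of 18 defining markers of myeloid cells and microglia, 17 had an entry under the name searched, and Spi1 had none. Of the 17, 15 were expressed well enough to test, among them the receptor Csf1r. Csf1r had 10926, 10053 and 10804 normalised reads untreated and 11267, 10220.5 and 10148 after LPS. Sall1 and Siglech, which mark microglia in tissue, were too low to test. The 28 markers of neurons, astrocytes, oligodendrocytes, endothelium, fibroblasts, lymphocytes and epithelium summed to 76.9 to 188 normalised reads untreated and 62.8 to 102 after LPS, with 9 of them at 0 in all 6 libraries. Tet2, the target of the other siRNA, had 1988, 2399 and 1827 normalised reads untreated and 10405, 16792 and 14762 after LPS, and rose by 2.72 (SE 0.20). An exact permutation test of Tet2 over the 6 libraries gave p = 0.1, the smallest value that 3 against 3 libraries allow. Bulk RNA cannot tell apart a change in every cell from a change in the share of cells that respond. Nor can it tell fewer cells of a type from less RNA per cell.

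Normalised reads are reads on a gene divided by the authors' size factor of the library, recovered from the deposited values. Differences are LPS minus untreated on the log2 scale of the deposited variance-stabilised values, with a standard error (SE), and low genes appear to change less on this scale than their reads do. A gene is said to have risen or fallen where limma gave an adjusted p under 0.05 in the fit of all genes. No label ties a replicate to its own culture, so the p-values measure the spread between these libraries, which may be technical.

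The response was broad, and the largest increases were larger than the largest decreases. Of 12486 genes tested, 1649 rose (13.2%) and 1304 fell (10.4%). Of all genes tested 896 (7.18%) rose by at least 1 log2 unit and 478 (3.83%) fell by at least 1. Increases of at least 2 log2 units were found in 344 genes and of at least 4 in 76, whereas decreases of at least 2 were found in 63 genes and of at least 4 in none. This scale compresses low levels, and with voom on the recovered reads 734 genes fell by at least 1 in place of 478. Over the alternative fits the difference reached -4.86 for Cxcr4, the largest decrease on the deposited scale, and -5.02 for Fbxo32. The median difference was 1.08 among genes that rose, -0.86 among genes that fell and -0.02 over all genes tested. All 3 LPS libraries lay above all 3 untreated libraries in 2393 genes (19.2%) and below them in 2289 (18.3%), so groups that did not overlap were about as frequent in either direction.

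The risen genes took up a much larger part of the RNA after LPS. They held 14.5%, 14.7% and 13.2% of reads in the untreated libraries and 29.7%, 30.9% and 28.0% in the LPS libraries. The fallen genes went from 6.80%, 6.59% and 7.58% of reads to 2.71%, 2.77% and 3.00%. Both shifts left a gap between the groups far wider than the spread within them, though the genes were chosen on the same libraries, so these shares describe the response and do not test it. The gain was spread over many genes: the 10 that gained most made up 12.5% of it, the top 50 made up 31.4% and the top 100 made up 44.8%.

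**Figure D1:**
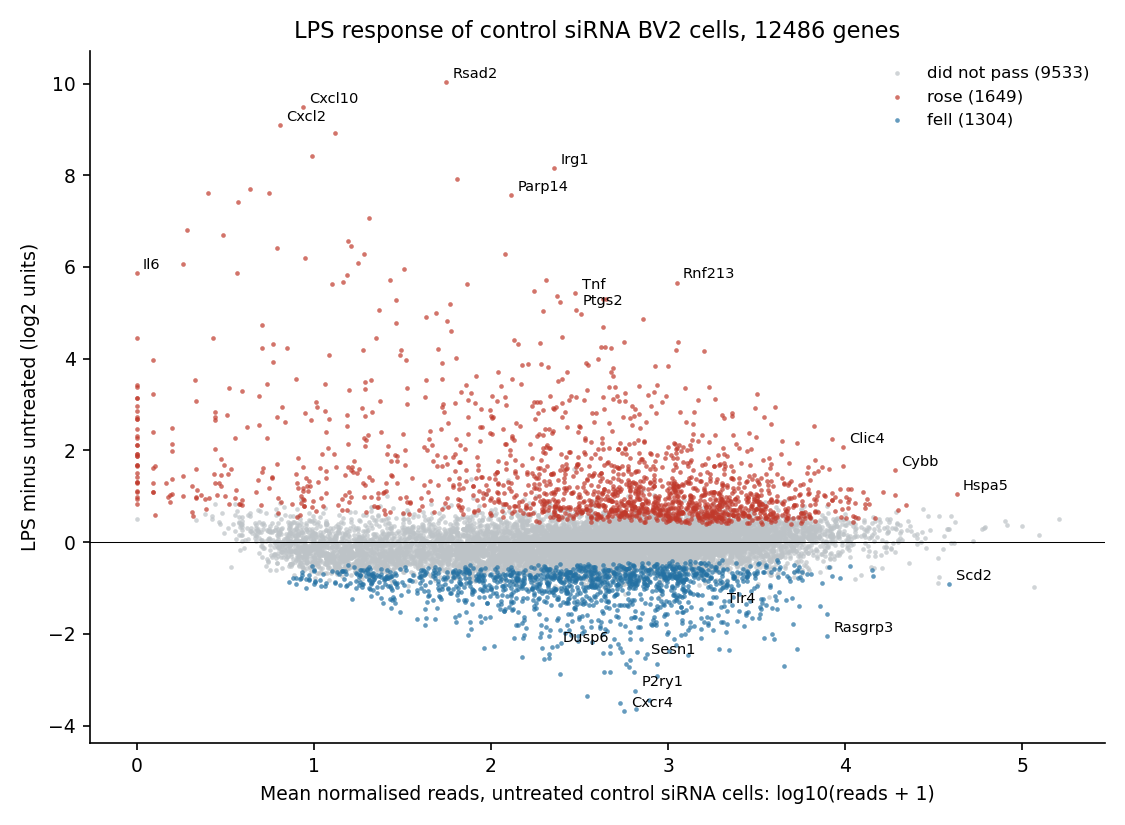
Each point is 1 of 12486 genes, with its mean normalised reads in untreated control siRNA cells on a log10 axis and its LPS difference in log2 units on the vertical axis. Red points (1649) rose, blue points (1304) fell and grey points did not pass, and the increases reach 10.03 at Rsad2 while the decreases end at -3.69 at Cxcr4.

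On the variance-stabilised scale, the 12 largest increases belonged to antiviral genes, a pair of chemokines and the itaconate enzyme Irg1. The ranking depends on this scale, which compresses genes near 0 untreated. Il6, with 0 untreated reads, had 5.87 here but was at least 1182-fold higher against a floor of 3 counts over the untreated group. Over the alternative fits the difference reached 12.52 for Cxcl10 and 10.61 for Rsad2. Rsad2, which encodes viperin, an antiviral enzyme that makes a chain-terminating nucleotide, had 33.8, 103 and 28.1 normalised reads untreated and 88644, 122555 and 48734 after LPS. Its difference was 10.03 (SE 0.46) with a limma adjusted p of 1.53e-08. Replicate 2 was highest and replicate 3 lowest among the LPS libraries, and no LPS library came near an untreated one. Cmpk2, a mitochondrial nucleotide kinase, had 11.6, 19.6 and 5.27 untreated and 15975, 31314 and 11198 after LPS, a rise of 8.93 (SE 0.39). Ifit1, which binds viral RNA that lacks the host cap methylation, had 4.95, 9.08 and 12.3 untreated and 11574, 20359.6 and 5909.8 after LPS, a rise of 8.41 (SE 0.37). Both followed the same order of LPS libraries as Rsad2, with replicate 2 highest and replicate 3 lowest.

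The order of LPS libraries was different for some of the other leading genes. Cxcl2, a chemokine for neutrophils, had 2.48, 13.97 and 0 normalised reads untreated and 8418, 23001 and 12996 after LPS, and its lowest LPS library was replicate 1. Irg1, which makes itaconate from a Krebs cycle intermediate, had 205, 340.3 and 135 untreated and 66971, 80366 and 63038 after LPS, so its LPS libraries were close to each other. Parp14, a mono-ADP-ribosyltransferase, had 94.9, 198 and 94.9 untreated and 34391, 34046 and 20936 after LPS, with replicates 1 and 2 nearly level. The groups of all 12 genes lay apart. The remaining 6 were Cxcl10 (9.48), Ifit2 (7.92), Gbp2 (7.69), Ifit3 (7.61), Mx1 (7.61) and Mx2 (7.42). Reads of near-identical family members such as those of Ifit and Gbp genes may have been shared out in the authors' counting, so their single values are uncertain.

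The promoters of the leading genes are shown because NF-kB and the interferon factors bind short DNA motifs in them, known as the kB motif and the interferon-stimulated response element (ISRE). Of the 12 genes with the largest increases, 9 had a promoter in the RefSeq table used here, and 7 of these held a kB or ISRE match in the 250 bases before the start. Stretches of those 7 come first, then Il6 and Ifnb1, which had 0 reads untreated, Isg15, an interferon-induced ubiquitin-like protein, and Nfkbia and Tnfaip3, which encode brakes on NF-kB. All sequences are RefSeq GRCm38.p6, upstream of the annotated start of the gene, and read 5′ to 3′ on the strand of the gene. The reads were mapped to another build, mm9, and genes were matched by symbol or, for names no longer current, by a synonym that points to 1 gene. Capitals mark every match to the kB motif or to the ISRE, searched as GAAA, any pair of bases and GAAA again, on either strand, and matches that overlap run together.
Rsad2 (chr12:26456523-26456582, minus strand): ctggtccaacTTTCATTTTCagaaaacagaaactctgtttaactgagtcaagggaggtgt
Cxcl10 (chr5:92348980-92349109, minus strand): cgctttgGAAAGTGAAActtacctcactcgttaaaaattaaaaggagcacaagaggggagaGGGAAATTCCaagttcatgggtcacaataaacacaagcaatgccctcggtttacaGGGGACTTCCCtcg
Cxcl2 (chr5:90903789-90903828, plus strand): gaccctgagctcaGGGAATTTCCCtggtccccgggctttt
Ifit1 (chr19:34640774-34640823, plus strand): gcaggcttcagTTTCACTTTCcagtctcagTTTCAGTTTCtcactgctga
Ifit2 (chr19:34550444-34550483, plus strand): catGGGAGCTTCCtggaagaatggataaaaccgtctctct
Gbp2 (chr3:142620583-142620622, plus strand): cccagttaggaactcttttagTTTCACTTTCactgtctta
Ifit3 (chr19:34583364-34583423, plus strand): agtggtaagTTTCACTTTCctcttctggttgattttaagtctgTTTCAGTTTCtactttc
Il6 (chr5:30013054-30013093, plus strand): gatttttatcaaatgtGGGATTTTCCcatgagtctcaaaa
Ifnb1 (chr4:88522885-88522924, minus strand): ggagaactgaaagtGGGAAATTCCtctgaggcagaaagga
Isg15 (chr4:156200869-156200908, minus strand): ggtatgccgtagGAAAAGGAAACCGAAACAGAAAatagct
Nfkbia (chr12:55492658-55492697, minus strand): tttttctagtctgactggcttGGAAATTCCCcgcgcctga
Tnfaip3 (chr10:19015411-19015550, minus strand): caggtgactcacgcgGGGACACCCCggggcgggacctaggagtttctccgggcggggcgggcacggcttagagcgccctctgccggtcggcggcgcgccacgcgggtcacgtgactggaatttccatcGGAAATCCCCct

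In these stretches the antiviral genes Rsad2, Ifit1, Ifit3 and Gbp2 held ISRE matches and no kB match, whereas Ifit2, of the same antiviral family, held a kB match and no ISRE. Cxcl2, Il6, Ifnb1, Nfkbia and Tnfaip3 held kB matches and no ISRE match, and Cxcl10 held both kinds. Isg15 held overlapping ISRE matches in a row, and Ifit1 and Ifit3 held a pair each. Cmpk2 and Irg1 held neither motif in the 250 bases, although they rose as far as the genes above. A match is a likeness of letters and not a measured binding site, and its absence says only that these letters are not in this window.

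Over the whole response, matches became more frequent with the size of the increase. The kB motif was present in 11.7% of the 1274 promoters of risen genes, in 19.8% of the 126 of genes that rose by at least 3 and in 31.4% of the 35 of genes that rose by at least 5. The ISRE was present in 7.06%, 24.6% and 42.9% in the same order. Over all 9454 promoters of genes tested the shares were 8.56% for kB and 2.80% for ISRE, and over all 27025 promoters in the table they were 7.01% and 3.04%. The 995 promoters of fallen genes held kB in 8.64% and ISRE in 1.71%, close to or below those of all genes tested. The AP-1 motif, searched as TGANTCA, went from 6.44% of risen genes to 28.6% of those that rose by at least 5. It was present in 4.38% of all tested and in 6.87% of all promoters in the table, and the share of all risen genes lay between these. The TATA box, searched as TATAAA, was present in 22.9% of those that rose by at least 5 and in 6.38% of all tested, against 12.97% of all promoters in the table. Promoters of the genes that rose most were also poorer in CpG than those of all genes tested. The median observed-to-expected CpG ratio was 0.28 at an increase of at least 5 and 0.74 for all genes tested. Over all promoters in the table it was 0.38. Base composition and motif frequency therefore moved together, and their part in each other was not tested.

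The groups of risen genes differed in how often they held each motif. Of the promoters of risen guanylate-binding and immunity-related GTPases, 9 of 10 held an ISRE and 1 of 10 a kB match. Of the promoters of risen chemokines, 6 of 9 held a kB match and 1 of 9 an ISRE. Risen NF-kB and IRF family genes held a kB match in 6 of 13. Other groups were less divided. Risen PARP, Schlafen, Ifi200 and helicase genes, also interferon-inducible, held an ISRE in 6 of 29 and a kB match in 4 of 29. Risen cytokine and growth factor ligands held a kB match in 4 of 14 and an ISRE in 1 of 14. These are counts on small numbers of promoters and were not tested.

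**Figure D2:**
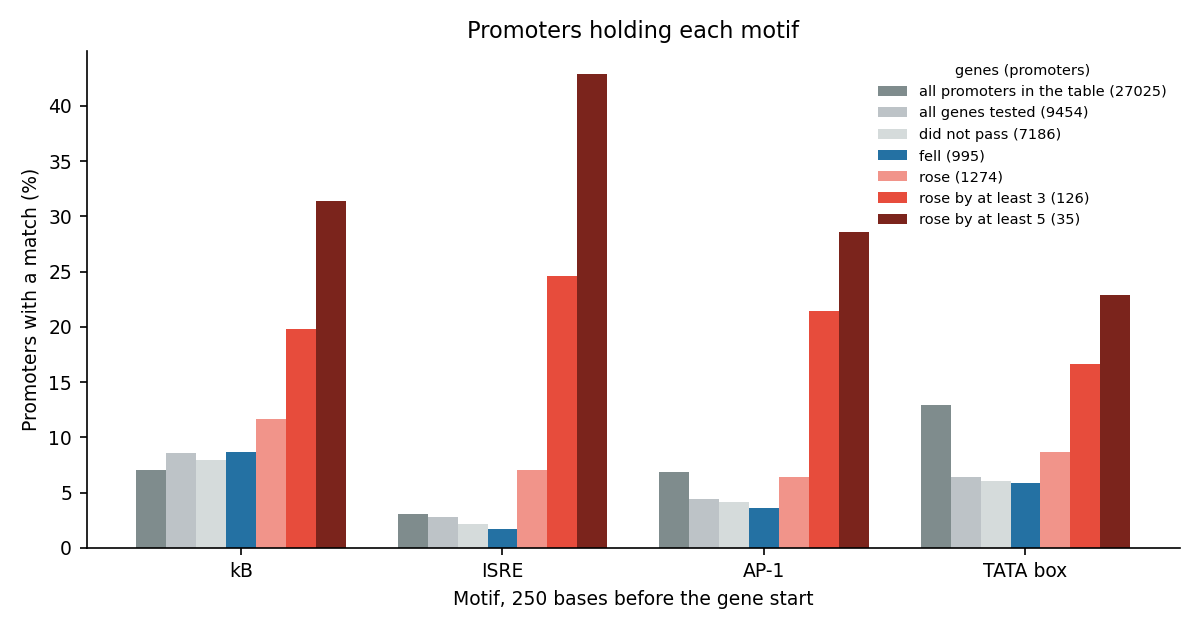
Bars give the percent of promoters, in the 250 bases before the gene start, that hold at least 1 match to each of 4 motifs, for 7 sets of genes with the number of promoters in brackets. The share with an ISRE climbs from 2.80% of all genes tested to 42.9% of genes that rose by at least 5, and fallen genes stay at 1.71%.

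Some genes had no reads at all in untreated cells and clear levels after LPS. In all 3 untreated libraries 8560 genes had 0 reads, and 63 of them had reads in all 3 LPS libraries, 32 at a mean of at least 10 normalised reads and 15 at a mean of at least 50. Leaving out untreated replicate 3, 52 genes at 0 in the other untreated libraries had an LPS mean of at least 10. A fold for these genes is a lower bound against a floor of 3 counts over the untreated group, and it covers counting error only. Serpina3f, a serine protease inhibitor, had 105, 416 and 58.9 normalised reads after LPS and was at least 207-fold higher. Batf2, a basic leucine zipper factor, had 78.7, 260.3 and 61.8 and was at least 143-fold higher. Zfp811, a zinc finger gene, had 120.4, 90.5 and 82.4 and was at least 105-fold higher. The 3 LPS libraries agreed closely for Zfp811, while for Serpina3f and Batf2 replicate 2 stood several-fold above the others. Apol9a, an apolipoprotein L family member, had 134, 244 and 75.5 and was at least 162-fold higher, and its copy Apol9b had 76.5, 175 and 46.1. Slfn1, a Schlafen family member, had 61.9, 180.05 and 35.3. The cytokines Il6 and Csf3, the chemokine Cxcl3 and the interferon gene Ifnb1 completed the 10 with the most reads, at means of 1104, 118, 341 and 94.0. With a floor of 3 counts in each library, 19 genes in place of 32 were at least 10-fold higher.

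The reverse depended on the level at which genes were counted. After LPS 10966 genes had 0 reads in all 3 libraries. Of these, 136 had an untreated mean of at least 5, against 44 genes in the other direction, and 14 had an untreated mean of at least 10 normalised reads, led by 3110047P20Rik, BC057022 and the receptor kinase gene Erbb4 at 15.8, 15.4 and 14.6. In 6 of the 14, 3110047P20Rik and Erbb4 among them, every untreated read came from replicate 3, the library with the most genes detected. Only 4 of the 14 had reads in all 3 untreated libraries. How many of the 136 rest on replicate 3 was not counted, so 136 against 44 does not show that more genes were lost than gained. For those 6 genes, loss with LPS and the makeup of that library cannot be told apart.

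Among the receptors that sense microbes, LPS raised the cytosolic RNA sensors and lowered its own receptor. Of 24 pattern recognition receptors tested, 12 rose and 3 fell, with a median of 0.98. Tlr4, the LPS receptor, had 2871, 1927 and 1189 normalised reads untreated and 580.4, 919.8 and 590.5 after LPS, and fell by 1.42 log2 units (SE 0.28, limma adjusted p = 0.00247). The highest LPS library lay below the lowest untreated one, though the untreated libraries themselves differed more than 2-fold. Tlr2, the receptor for bacterial lipopeptides, had 618, 559 and 518 untreated and 16279, 10159 and 11017 after LPS, a rise of 4.36 (SE 0.30). Tlr8 fell from 33.0, 45.4 and 33.4 reads to 0, 2.06 and 1.96. The RNA helicases Ddx58 (RIG-I) and Ifih1 (MDA5) rose by 5.71 (SE 0.28) and 4.45 (SE 0.39), and their regulator Dhx58 rose by 3.62. The lectin Clec4e, a receptor for mycobacterial glycolipid, rose by 4.36 (SE 0.35), the peptidoglycan sensor Nod2 by 3.91 and the inflammasome sensor Nlrp3 by 3.09. Tlr7 did not pass, at -0.51 (SE 0.34), and its untreated libraries ranged from 3141 to 7337 reads.

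Most adaptors and ubiquitin enzymes downstream of these receptors rose. Of 36 TRAF proteins, ubiquitin ligases and deubiquitinases of inflammatory signalling, 26 rose, 1 fell and 9 did not pass, Traf3 and Traf6 among them, with a median of 1.62. Traf1, an adaptor of TNF receptors, had 2.48, 2.10 and 3.51 normalised reads untreated and 1632, 1342 and 1236 after LPS, a rise of 5.88 (SE 0.20). Rnf213, a giant ubiquitin ligase that also ubiquitinates bacterial LPS, had 1039, 1340.1 and 969.7 untreated and 69709, 66092 and 41230.3 after LPS, a rise of 5.66 (SE 0.30). Traf1 was near 0 before LPS and Rnf213 was not, and the groups of both lay far apart. Isg15 rose by 6.19 (SE 0.30), Herc6, its ligase in the mouse, by 4.08, and Ube2l6, its conjugating enzyme, by 2.27. The brakes Tnfaip3, Tnip1 and Tnip3 rose by 4.24, 2.62 and 2.93. The kinases were mixed, with 17 of 51 up, 6 down and a median of 0.18, the fallen share near the 10.4% of all genes tested. Ikbke, the inducible IKK-related kinase, rose by 3.72 (SE 0.25), Ripk2, the kinase of NOD receptors, by 3.19 (SE 0.24) and Mapkapk2, the p38 target kinase that stabilises cytokine mRNA, by 2.94 (SE 0.21). Mapkapk2 had 3790.1, 3783 and 4527 untreated and 41297, 28497 and 25712 after LPS. Map3k1 fell by 1.52 (SE 0.14), and so did inhibitors of phosphoinositide 3-kinase signalling: Pik3ip1 fell by 2.31 (SE 0.26) and Inpp5d, the lipid phosphatase SHIP1, fell by 1.28 (SE 0.18).

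Feedback inhibitors of kinase signalling rose more often than all genes tested. Of 27 MAP kinase phosphatases and receptor tyrosine kinase brakes, 12 rose and 3 fell, beside 13.2% risen and 10.4% fallen of all genes tested. The fallen share was near that of all genes. Dusp1, the inducible phosphatase of p38 and JNK, had 163, 71.3 and 159.9 normalised reads untreated and 662, 993 and 603 after LPS, a rise of 2.31 (SE 0.35). Dusp6, which acts on ERK, had 201, 231 and 271 untreated and 24.7, 26.7 and 29.4 after LPS, and fell by 2.27 (SE 0.19, limma adjusted p = 1.93e-06). The groups of both genes lay apart, in opposite directions. Dusp5, also directed at ERK, rose by 2.23 (SE 0.37) and Dusp8 by 2.95 (SE 0.24). Among 20 regulators of JAK and STAT signalling 11 rose and 3 fell (1 fell without LPS replicate 1), with Usp18, which switches off the interferon receptor, up by 5.82 (SE 0.30), Socs3 by 3.57 (SE 0.18), Cish by 3.55 (SE 0.30) and Socs1 by 2.84. The kinase genes Jak2 and Tyk2 rose by 3.12 and 1.65.

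The transcription factors of the inflammatory response rose, and several factors of myeloid identity fell. Of 18 NF-kB and IRF family genes 16 rose, with a median of 2.84, and none fell. Irf1 had 231, 270.4 and 230.1 normalised reads untreated and 11947, 11732 and 7843 after LPS, a rise of 5.24 (SE 0.26). Nfkbia, which holds NF-kB in the cytoplasm, had 263, 435 and 267 untreated and 13951, 10101 and 8975 after LPS, a rise of 4.97 (SE 0.33). Irf7, the interferon-inducible IRF, rose by 5.00 (SE 0.38). The groups of these 3 genes lay far apart. Of the NF-kB subunits, Nfkb1 rose by 3.42, Relb by 3.10, Nfkb2 by 2.79 and Rel by 2.17, while the inhibitor-like Nfkbiz and Bcl3 rose by 3.17 and 3.01. Irf8 at -0.46 (SE 0.20) and Irf3 at -0.51 (SE 0.24) did not pass, and IRF3 is known to be activated by phosphorylation. Under quantile normalisation 13 of the 18 rose and 1 fell.

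The AP-1 and C/EBP families were divided, with 9 of 27 up, 4 down and a median of 0.28. Atf3, an inducible repressor of cytokine genes, had 2813, 2591 and 3443 normalised reads untreated and 16407, 11600.1 and 9287 after LPS, a rise of 2.03 (SE 0.25). Fos, an immediate early gene, had 464, 414 and 525 untreated and 49.5, 76.1 and 67.7 after LPS, and fell by 2.41 (SE 0.28). Fos was thus low in all 3 LPS libraries at 3 h. Of 39 KLF, EGR, NR4A and other inducible factors 14 rose and 7 fell, with a median of 0.22. Other immediate early genes were among those that fell, with Egr3 down by 2.28 (SE 0.35) and Nr4a1 by 1.81 (SE 0.22). Maff, a small Maf protein, rose by 2.26 (SE 0.18). Myc, the growth factor-responsive regulator, rose from 14.03, 23.1 and 22.8 reads to 662, 497 and 398, and Mxd4, which competes with it for its partner Max, fell by 2.22 (SE 0.19), although the related Mxd1 rose by 2.35. Without the filter on low values 5 of the 27 rose and 4 fell, with quantile normalisation 7 rose and 5 fell.

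Lineage factors moved down more often than up. Of 20 transcription factors of microglia and macrophages 9 fell and 4 rose, with a median of -0.47. Lyl1, a basic helix-loop-helix factor of blood progenitors, had 541, 504 and 1302 normalised reads untreated and 45.0, 23.7 and 54.9 after LPS, and fell by 3.44 (SE 0.32, limma adjusted p = 4.91e-06). Cebpa had 309, 385 and 1411 untreated and 145, 79.2 and 101 after LPS, and fell by 2.11 (SE 0.42). Untreated replicate 3 was the highest for both genes, and the groups lay apart with the other untreated libraries as well. Fli1 fell by 1.42 and Mef2c by 1.38. Foxp1 and Mitf rose by 0.88 (SE 0.20) and 0.84 (SE 0.18). With quantile normalisation 2 of the 20 rose and 10 fell. Of 18 nuclear receptors 5 fell and 1 rose, led by Nr1d1, the clock repressor REV-ERB alpha, at -1.76 (SE 0.29), and by the retinoid receptors Rxra at -1.42 (SE 0.21) and Rara at -1.28 (SE 0.24). Between 3 and 7 of the nuclear receptors fell over the alternatives, 3 of them without LPS replicate 2.

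Secreted signals that could be tested rose with few exceptions. Of 30 cytokine and growth factor ligands tested, from 47 listed, 22 rose and 1 fell (median 2.02). Of 17 chemokines tested, from 25 listed, 15 rose and 1 fell (median 2.19). The rest were too low to test, and genes with 0 reads untreated, such as Il6, Csf3 and Cxcl3, could only rise. Il1a, an alarmin of the interleukin-1 family, had 57.0, 113 and 47.4 normalised reads untreated and 2287, 9159 and 5306 after LPS, a rise of 5.62 (SE 0.43). Ccl5, a chemokine for T cells, had 16.5, 16.8 and 12.3 untreated and 2887, 5812 and 2694 after LPS, a rise of 6.45 (SE 0.27). Ccl3 was already abundant at 5349.6, 8463 and 6243 reads and reached 18932, 65791 and 43923. Replicate 2 was the highest LPS library for all 3. Per kilobase of transcript, Ccl3 and Ccl4 were 5th and 13th in level among all genes tested after LPS, from 77th and 966th before. Smaller increases were found in Edn1, the vasoconstrictor peptide endothelin (4.08), Il1rn, the interleukin-1 receptor antagonist (3.38), Il27 (3.18), Csf1 (2.37), Il15 (2.47) and the death ligand Tnfsf10 (2.49). Igf1 did not pass, at -0.03. Without LPS replicate 2, 18 of the 30 cytokines rose and none fell.

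The interferon-inducible genes that could be tested rose nearly without exception. All 15 guanylate-binding, Mx and immunity-related GTPases tested rose, with a median of 5.20, and the rest of the 19 listed were too low to test. Gbp6, Gbp10 and Iigp1 among the 15 had 0 reads in every untreated control siRNA library, so they could only rise. The summed reads of the 19 went from 258 to 513 in the untreated libraries to 24456 to 56765 after LPS. Of 40 PARP, Schlafen, Ifi200 and helicase genes 38 rose, with a median of 3.32. Mx2, an antiviral GTPase, had 3.30, 4.89 and 0 normalised reads untreated and 4028, 5001 and 2783 after LPS. Gbp7, a guanylate-binding protein that acts at vacuoles of microbes, had 0, 6.29 and 0 untreated and 1768, 3500.1 and 1343 after LPS, a rise of 6.69 (SE 0.36). Samd9l, a restriction factor of poxviruses, had 21.5, 20.3 and 8.78 untreated and 2214, 4624 and 2225 after LPS, a rise of 6.08 (SE 0.29). In each the lowest LPS library was far above the highest untreated one. Rtp4 rose by 6.42 (SE 0.39), Slfn5 by 5.27, Xaf1, a pro-apoptotic partner of XIAP, by 5.07, and the Ifi200 family genes Ifi204 and Mnda by 3.84 and 5.04. Parp1, the main repair PARP, did not pass, at -0.15. Over the alternatives 13 to 15 of the GTPases and 35 to 38 of the PARP, Schlafen and related genes rose, and none fell.

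The 3 LPS libraries differed in how far these genes rose. Replicate 2 was the highest LPS library for all 15 GTPases and for 33 of the 38 risen PARP, Schlafen and related genes. The median GTPase lay 0.69 log2 units above its mean over the LPS libraries in replicate 2, at -0.04 in replicate 1 and at -0.65 in replicate 3. Replicate 2 was also highest for 18 of 22 risen cytokines and 11 of 15 risen chemokines, whose replicates 1 and 3 lay close together. Proteasome and antigen presentation genes had another order: replicate 1 was highest for 10 of 13 risen proteasome genes and 13 of 21 risen antigen presentation genes. Over all 896 genes that rose by at least 1, replicate 2 was highest in 490, replicate 1 in 297 and replicate 3 in 109. The highest LPS library held a median of 1.57 times the reads of the lowest. The widest spread among genes with at least 50 mean reads after LPS was in Serpina3f, Ifnb1, Iigp1, Serpina3g, Gm14446 and Ccl12. Iigp1, an immunity-related GTPase, had 0 reads untreated and 50.6, 162 and 9.81 after LPS. Ccl12 had 0 reads untreated and 14.6, 124 and 28.4 after LPS.

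**Figure D3:**
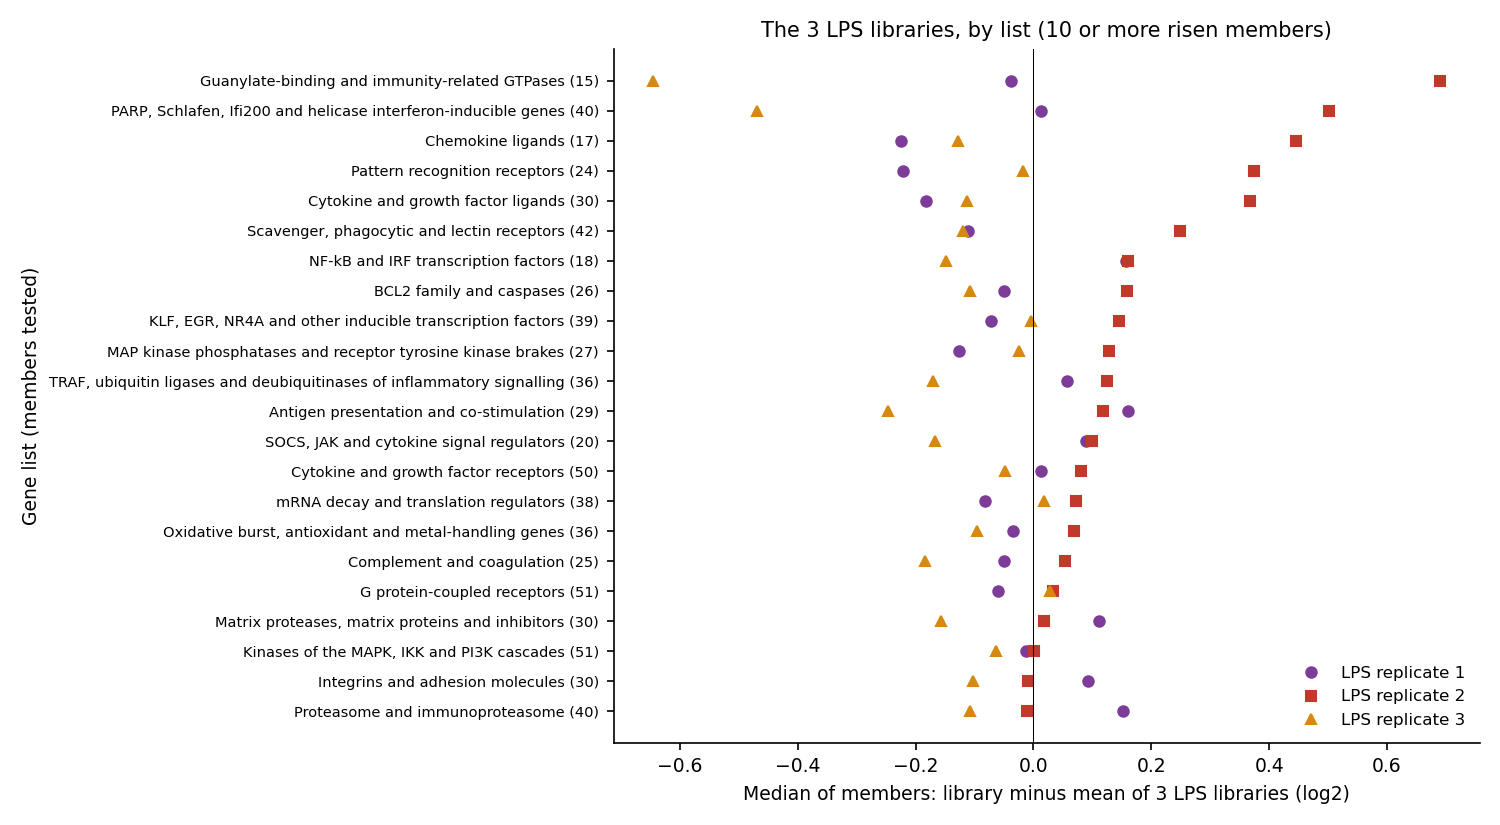
For each gene list with at least 10 risen members, symbols give the median over tested members of the value in 1 LPS library minus the mean of the 3 LPS libraries, in log2 units. Replicate 2 lies highest in the interferon-inducible GTPases (0.69) and replicate 3 lowest (-0.65), while proteasome genes put replicate 1 highest at 0.15.

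**Figure D4:**
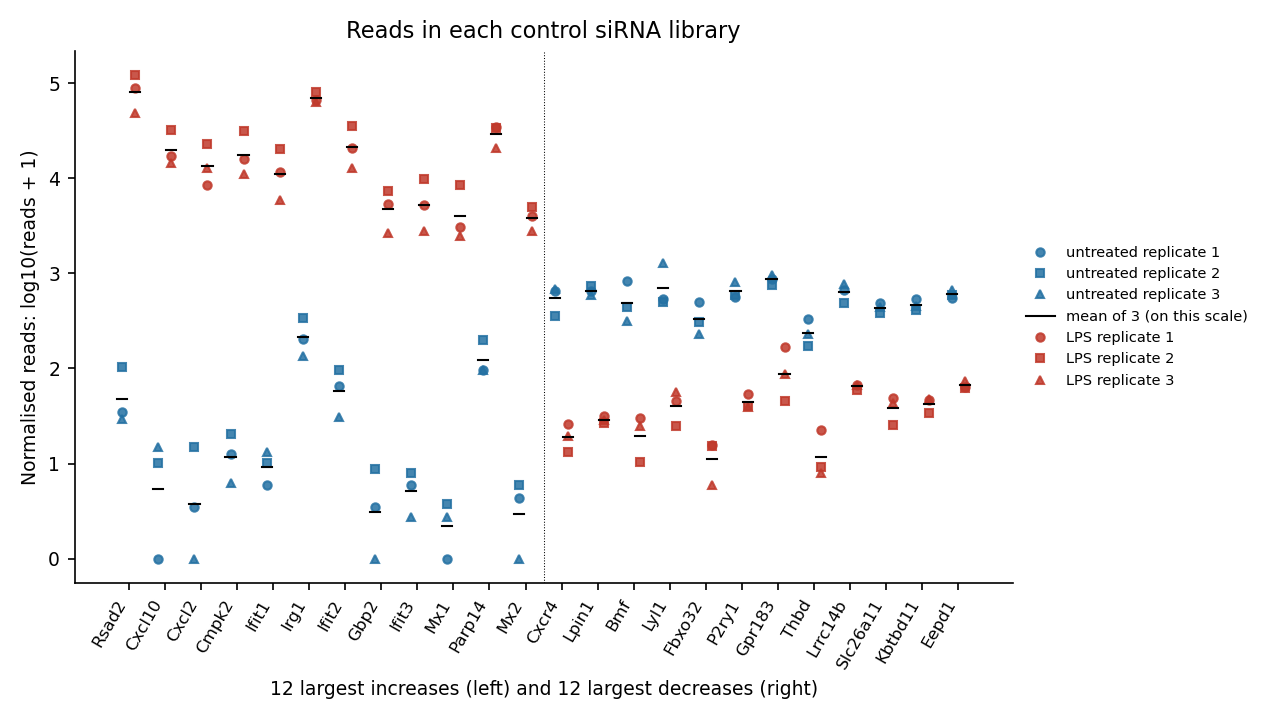
Normalised reads in each of the 6 libraries, as log10(reads + 1), for the 12 genes with the largest increases and the 12 with the largest decreases, with blue for untreated, red for LPS, a symbol for each replicate and a bar at the mean of 3 on this scale. In all 24 genes the 3 LPS libraries lie wholly above or wholly below the 3 untreated ones.

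Receptors for the cells' surroundings changed in both directions, and more G protein-coupled receptors fell than rose. Of 51 such receptors tested 18 fell and 12 rose, with a median of -0.46, and 12 to 19 fell over the alternatives. Cxcr4, the receptor for the chemokine CXCL12, had 655, 359.8 and 685 normalised reads untreated and 24.7, 12.3 and 18.6 after LPS, and fell by 3.69 (SE 0.26, limma adjusted p = 4.36e-07). P2ry1, an ADP receptor, had 557, 599 and 805 untreated and 52.9, 39.1 and 38.3 after LPS, and fell by 3.24 (SE 0.21). Gpr183, a receptor for oxysterols that guides immune cells, had 879, 762 and 963 untreated and 165, 44.2 and 87.3 after LPS, and fell by 2.91 (SE 0.34). These receptors were well expressed in every untreated library and low in every LPS library. The lysophosphatidic acid receptors Lpar5 and Lpar6 fell by 2.56 and 1.84, Gpr146 by 2.42 and Gpr65, which senses acid, by 1.38. Gpr77, a receptor for C5a, fell by 2.11, whereas C5ar1, another receptor for C5a, did not pass. Ccrl2, a non-signalling chemerin receptor, rose from 15.7, 18.2 and 7.03 reads to 1809.8, 2402 and 1651, a rise of 5.66 (SE 0.28). Gpr84, a receptor for medium-chain fatty acids, rose by 3.96 (SE 0.32), Niacr1, the hydroxybutyrate and niacin receptor, by 2.52 (SE 0.23), and the adenosine receptors Adora2b and Adora2a by 2.36 (SE 0.24) and 1.87.

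Of 50 cytokine and growth factor receptors 15 rose and 4 fell, with a median of 0.41. Cd40, the co-stimulatory receptor of the TNF receptor family, had 285, 209 and 121 normalised reads untreated and 13307, 12362 and 10256 after LPS, a rise of 5.72 (SE 0.36). Fas, a death receptor, went from 0, 0.699 and 0 to 229, 254 and 244, so that it was present only after LPS apart from traces. Met, the receptor of hepatocyte growth factor, rose by 3.44 (SE 0.32) and Tnfrsf1b, the TNF receptor 2, by 3.22 (SE 0.26). Il6ra, the receptor for interleukin-6, had 1288, 1074 and 1646 untreated and 253, 364 and 434 after LPS, and fell by 1.85 (SE 0.20), while the ligand gene rose from 0 reads. Tgfbr2 fell by 0.83 (SE 0.16). Csf1r did not pass, at -0.01 (SE 0.17).

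Of 42 scavenger, phagocytic and lectin receptors 16 rose and 2 fell, with Olr1, the receptor for oxidised LDL, up by 3.34 (SE 0.38) and Marco by 2.54 (SE 0.33). Mertk, a receptor for dying cells, had 1327, 1395 and 933 normalised reads untreated and 336, 628 and 288 after LPS, and fell by 1.53 (SE 0.28). Its relative Axl rose by 1.48, but that call ended in 2 of the alternatives. With quantile normalisation 14 of the 42 rose and 6 fell, and without the filter on low values 10 rose and 1 fell.

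Regulators of mRNA decay were divided within the same families. Of 38 tested 12 rose and 6 fell, with a median of 0.19. Zc3h12c and Zc3h12a (Regnase-1), RNases that cut cytokine mRNAs, rose by 3.41 (SE 0.17) and 2.25 (SE 0.24). Zc3h12c had 645, 762 and 655 normalised reads untreated and 6156, 7961 and 8871 after LPS. Zfp36 (tristetraprolin), which binds AU-rich elements and speeds decay, rose by 2.02. Its relatives Zfp36l1 and Zfp36l2 moved the other way. Zfp36l1 had 1052, 947 and 1597 untreated and 290.2, 352 and 319 after LPS, and fell by 1.77 (SE 0.20), and Zfp36l2 fell by 1.57 (SE 0.23). Tnrc6b, a partner of Argonaute in microRNA silencing, fell by 1.78 (SE 0.18), and Tob1, a recruiter of deadenylase, fell by 1.34. Among 25 TRIM proteins 6 rose and 3 fell, beside 13.2% and 10.4% of all genes tested. Trim21, the antibody receptor of the cytosol, rose by 4.01 (SE 0.24), and Trim8 and Trim65 fell by 1.45 and 1.73.

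Genes of cell death rose more often than all genes tested. Of 26 BCL2 family genes and caspases 13 rose and 4 fell, with a median of 0.80, beside 13.2% risen and 10.4% fallen of all genes tested. Bmf, a pro-apoptotic BH3-only gene, had 840.4, 439 and 318 normalised reads untreated and 29.2, 9.26 and 23.5 after LPS, and fell by 3.50 (SE 0.31). Casp9, the initiator caspase of the mitochondrial route, fell by 1.41 (SE 0.17). Casp4, the mouse sensor of cytosolic LPS known as caspase-11, had 249, 161 and 73.8 untreated and 2600.5, 2881 and 2316 after LPS, a rise of 3.88 (SE 0.33). Cflar, the inhibitor of caspase-8, rose by 3.18 (SE 0.18) and had 854, 1199 and 857 untreated and 8589.9, 10025 and 8267 after LPS. The anti-apoptotic copies Bcl2a1a, Bcl2a1b and Bcl2a1d rose by 2.74, 2.74 and 2.72, values that may share reads because the copies are nearly identical. Another BH3-only gene, Bcl2l11 (Bim), rose by 1.74. Leaving out untreated replicate 2, untreated replicate 3 or LPS replicate 1 left 2 of the 26 fallen.

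Antigen processing rose in a graded way. Of 40 proteasome genes 13 rose and none fell, with a median of 0.38. The inducible subunits Psmb9, Psmb10 and Psmb8 rose by 2.03 (SE 0.25), 1.57 (SE 0.31) and 1.31, and the activator subunits Psme2 and Psme1 by 1.84 (SE 0.32) and 1.23. Psmb9 had 52.0, 75.5 and 84.3 normalised reads untreated and 508, 393 and 262 after LPS. Most constitutive subunits did not pass, and 8 of the 40 rose under quantile normalisation. The same number rose without the filter on low values, and 7 rose without untreated replicate 3 and LPS replicate 1 together. Of 29 genes of antigen presentation and co-stimulation 21 rose and 1 fell (median 1.22). H2-M2, a nonclassical class I gene, had 13.2, 16.8 and 5.27 untreated and 1371, 2332 and 1734 after LPS, a rise of 5.63 (SE 0.29). Icosl, a ligand of T cell co-stimulation, rose by 3.03 and Nlrc5, the activator of class I genes, by 1.90. Cd200r1, an inhibitory receptor, had 372, 356 and 197 untreated and 28.1, 73.0 and 41.2 after LPS, and fell by 2.16 (SE 0.32).

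Single coagulation genes moved in opposite directions. Of 25 complement and coagulation genes 11 rose and 2 fell, and the fallen share was not above the 10.4% of all genes tested. F3, tissue factor, had 7.43, 22.4 and 14.1 normalised reads untreated and 95.6, 189 and 164 after LPS, a rise of 2.15 (SE 0.26). Thbd, thrombomodulin, which turns thrombin to an anticoagulant role, had 333, 169.8 and 230.1 untreated and 21.4, 8.23 and 6.87 after LPS, and fell by 2.87 (SE 0.33). Procr, the protein C receptor that works beside it, rose by 3.38 (SE 0.27). The complement genes Cfb and C3 rose by 3.53 (SE 0.31) and 3.11, whereas C1qb and C1qc did not pass, at -0.11 and -0.44.

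Of 30 matrix proteases, matrix proteins and inhibitors 11 rose and 2 fell, and of 30 integrins and adhesion molecules 12 rose and none fell. Saa3, an acute phase protein, had 27.2, 23.8 and 33.4 normalised reads untreated and 2746, 952 and 1252 after LPS, a rise of 4.77 (SE 0.31), and here replicate 1 was the highest LPS library. Mmp13, a collagenase, rose by 4.18 (SE 0.26). Icam1, the ligand of leukocyte integrins, had 637, 901 and 991 untreated and 16243, 10758 and 10806 after LPS, a rise of 3.85 (SE 0.24). Itga5, the fibronectin receptor subunit, rose by 2.77 (SE 0.27). With quantile normalisation 9 of the 30 integrins and adhesion molecules rose and 1 fell.

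Few genes of central metabolism passed, beside 13.2% risen and 10.4% fallen of all genes tested. Of 30 genes of the tricarboxylic acid cycle Irg1, Me1 and Dld rose, and the call of Dld ended in 7 of the 22 alternatives. Of 30 genes of glycolysis and glucose uptake 3 rose and 1 fell. With library weights, or with length and GC trends removed, 6 of the 30 rose, without untreated replicate 3 or LPS replicate 3, 5 rose, and with quantile normalisation 4 fell. Slc2a6, a glucose transporter family member of lysosomes, had 317, 531 and 536 normalised reads untreated and 2464, 3605 and 2654 after LPS, a rise of 2.59 (SE 0.25). Pfkfb3, the glycolytic activator, rose by 0.82 (SE 0.18) and its relative Pfkfb2 fell by 0.96 (SE 0.16). None of 35 genes of oxidative phosphorylation passed in either direction, with a median of 0.02. Lpin1, the phosphatidate phosphatase lipin 1, had 659, 739 and 587 untreated and 30.4, 25.7 and 27.5 after LPS, and fell by 3.64 (SE 0.16), with tight groups on both sides. Acsl1, a fatty acid activating enzyme, had 1408, 1508 and 1235 untreated and 10692, 8655 and 6279.6 after LPS, a rise of 2.57 (SE 0.19). Over all 45 lipid genes 5 rose and 5 fell, with a median of -0.07. The median turned to 0.06 without untreated replicate 2 and to 0.07 without LPS replicate 3, 8 fell under quantile normalisation and 3 fell without untreated replicate 3.

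Of 24 genes of arginine, polyamine, tryptophan and nitric oxide metabolism 6 rose, 3 fell and 15 did not pass. Nos2 had 169, 72.7 and 118 normalised reads untreated and 1.40e+04, 11758 and 8542 after LPS. Gch1, which makes the cofactor of nitric oxide synthase, had 119, 155 and 139 untreated and 858, 1212 and 911 after LPS, a rise of 2.60 (SE 0.19). Slc7a2, an arginine importer, rose by 2.07 (SE 0.22), and Kmo, Nos1 and Amd1 were the genes that fell. Of 36 genes of the oxidative burst, antioxidant defence and metal handling 16 rose and none fell. Slc7a11, the cystine importer, had 1236, 863 and 389.98 untreated and 6153, 7516 and 9437 after LPS, a rise of 3.28 (SE 0.37). Slc11a2, the iron transporter DMT1, rose by 2.75 (SE 0.17) with the 3 libraries of each group close together, Sod2 by 2.08 (SE 0.15) and Txnrd1 by 2.16 (SE 0.22). With quantile normalisation 14 of the 36 rose and 2 fell. In nucleotide metabolism 7 of 32 rose and 1 fell, with the purine nucleoside phosphorylases Pnp and Pnp2 up by 2.91 (SE 0.26) and 2.76 (SE 0.24), values that may share reads, and Ampd3 up by 2.72 (SE 0.27). In prostanoid synthesis 3 of 15 rose and 2 fell, beside 13.2% and 10.4% of all genes tested. Those that fell were Hpgds and Ltc4s, whose calls ended in 6 and 11 of the alternatives. Ptgs2 had 324, 329 and 253 untreated and 9509.97, 13904 and 10417 after LPS.

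Growth arrest genes moved apart from each other. Of 37 genes of the G1 phase and quiescence 11 fell and 6 rose, with a median of -0.22. Sesn1, a stress-induced inhibitor of mTOR signalling, had 768, 809.8 and 631 normalised reads untreated and 102, 98.8 and 106 after LPS, and fell by 2.52 (SE 0.16, limma adjusted p = 1.85e-07). Foxo3, a forkhead factor held in check by AKT, had 1454, 1151 and 1374 untreated and 394, 295 and 441 after LPS, and fell by 1.74 (SE 0.17). Cdkn1a, the inhibitor p21, had 413, 359.8 and 1063 untreated and 3495, 4479 and 3229 after LPS, a rise of 2.70 (SE 0.37). Each of these 3 genes had groups that lay apart. Without LPS replicate 1 or without LPS replicate 2, 7 of the 37 fell, and without the filter on low values 6 fell. Of 47 genes of DNA replication and mitosis 1 rose and 1 fell (3 fell without untreated replicate 3), and their median of -0.27 lay below that of all genes.

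Of 20 clock genes tested 8 fell, none rose and 12 did not pass, with a median of -0.50. Tef, a clock output factor, had 575, 573 and 676 normalised reads untreated and 228, 206 and 247 after LPS, and fell by 1.31 (SE 0.15). Bhlhe41 fell by 1.07 (SE 0.21) and Nr1d1 had 121, 91.5 and 237 untreated and 16.9, 21.6 and 32.4 after LPS. Clock itself did not pass, at -0.11. The count of fallen clock genes was 5 without LPS replicate 2 and 4 without the filter on low values, and 1 rose without untreated replicate 2.

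Chromatin genes as a group stayed near the background, with 9 of 50 up, 5 down and a median of 0.02. Setdb2, an interferon-inducible histone methyltransferase family member, had 282, 297 and 172 normalised reads untreated and 1799, 3701 and 1644 after LPS, a rise of 3.03 (SE 0.27). Kdm6b, the H3K27 demethylase, rose by 1.16 (SE 0.21). Hdac9, a class IIa histone deacetylase, had 2501, 2626 and 3125 untreated and 702, 1242 and 1313 after LPS, and fell by 1.36 (SE 0.28). With quantile normalisation 4 of the 50 rose and 8 fell, and without LPS replicate 2, 8 rose and 3 fell. Among noncoding RNAs the gene entry Mir155, the primary transcript of a microRNA known to be induced by NF-kB, had 38.8, 13.3 and 38.6 untreated and 1047, 915 and 1015 after LPS, a rise of 4.19 (SE 0.30), and mature microRNA was not measured. Neat1, the scaffold of paraspeckles, rose by 1.64 (SE 0.28). Over all annotated long noncoding RNAs 40 rose and 76 fell of 465 tested, beside 13.2% risen and 10.4% fallen of all genes tested. Calls also varied with level, taken as the mean over all libraries. Of the 3122 genes lowest in level 8.65% rose and 12.7% fell, against 20.9% and 5.03% of the 3122 highest. The part of level and of untreated replicate 3 in the noncoding counts was not tested. In the unfolded protein response Ppp1r15a (GADD34) rose by 1.75 (SE 0.18), whereas Xbp1 and the sensor kinase Eif2ak3 (PERK) fell by 1.18 each. Lysosome genes (3 of 45 up, none down), ribosome biogenesis (5 of 44 up, 1 down) and the myeloid markers (1 of 15 up, none down) had few calls. The risen ribosome genes were 2 or 3 when any of untreated replicate 1 or the 3 LPS libraries was left out. With quantile normalisation 4 of the 15 myeloid markers and 3 of the 45 lysosome genes fell, with Csf1r at -0.52 and Cd68 at -0.91. Laptm5, another of these markers, was called down in 7 of the alternatives.

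**Figure D5:**
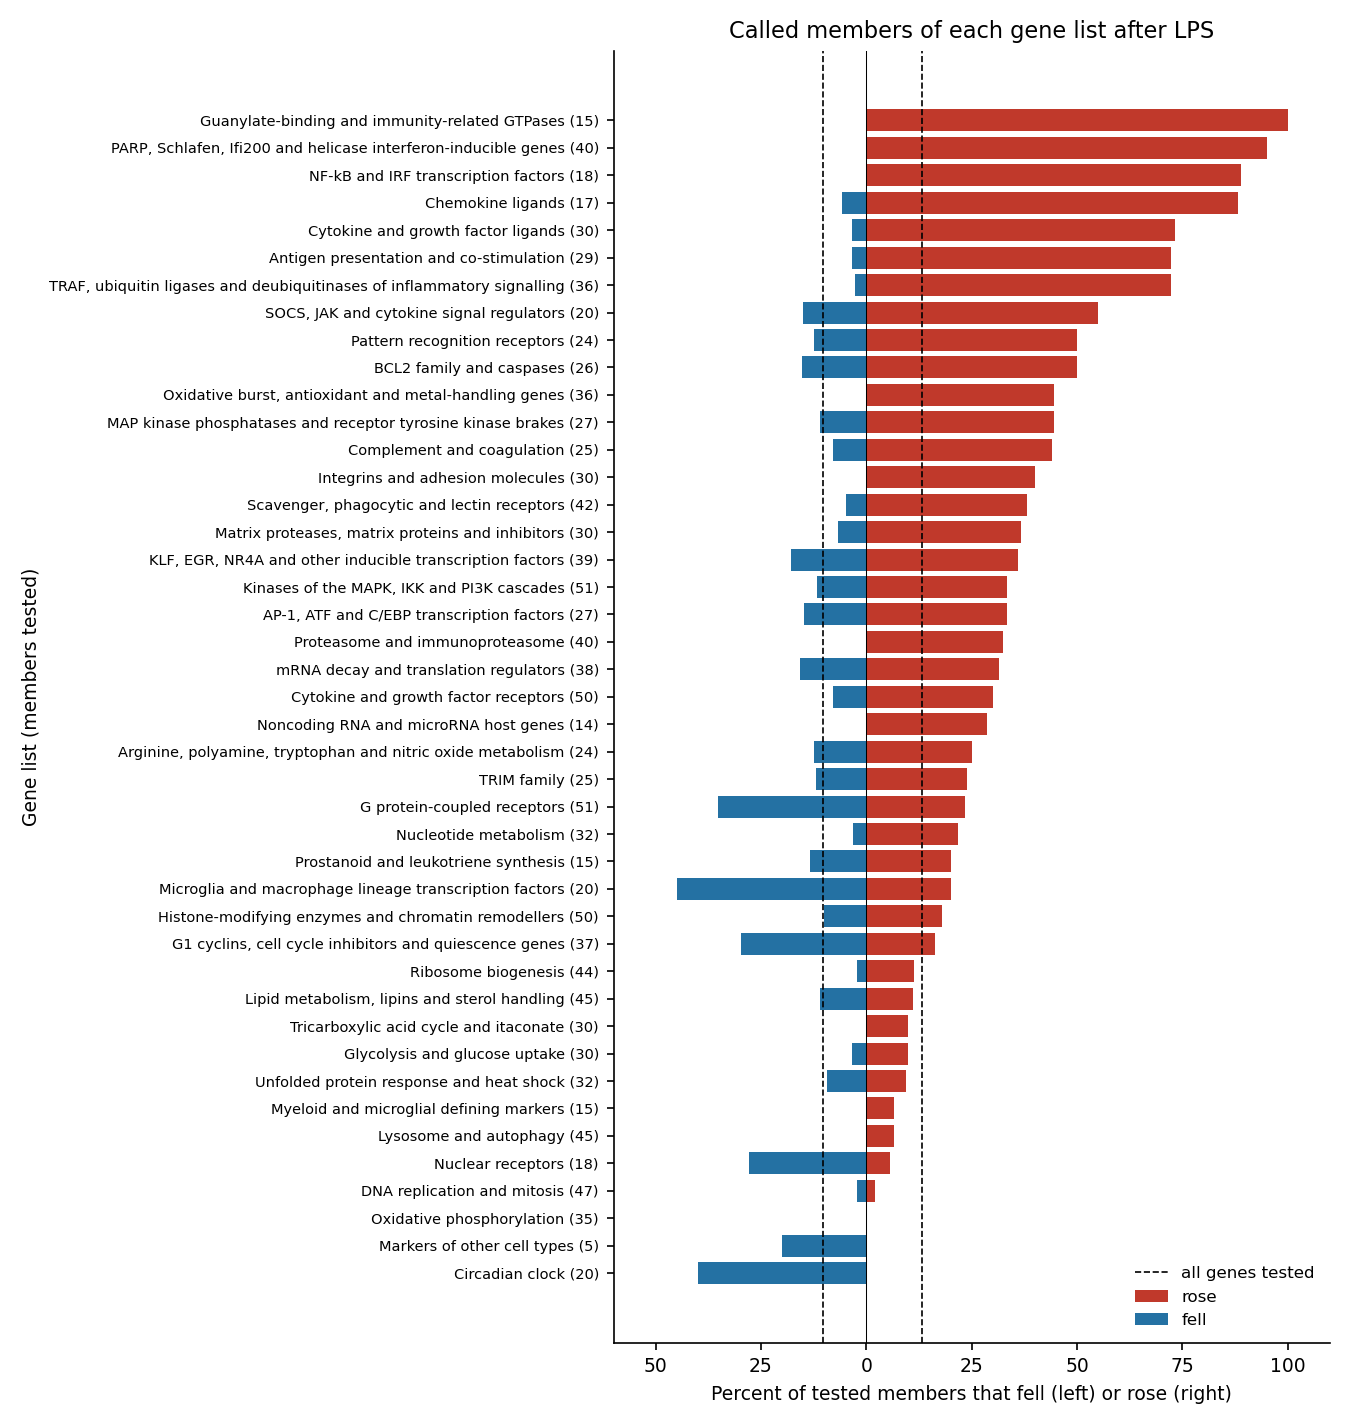
For each of 43 gene lists, with the number of members tested in brackets, bars give the percent of members that rose (red, to the right) and fell (blue, to the left). Dashed lines mark all genes tested, 13.2% risen and 10.4% fallen. All 15 interferon-inducible GTPases rose, and none of the 20 clock genes, 35 oxidative phosphorylation genes or 5 markers of other cell types did.

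The remaining large decreases were in genes of varied function. Fbxo32, the muscle ubiquitin ligase atrogin-1, had 504, 311 and 230.1 normalised reads untreated and 14.6, 14.4 and 4.90 after LPS, and fell by 3.35 (SE 0.29). Lrrc14b, which encodes a leucine-rich repeat protein, had 661, 492 and 775 normalised reads untreated and 66.4, 58.6 and 66.7 after LPS, and fell by 2.83 (SE 0.18). In both the highest LPS library was far below the lowest untreated one. Slc26a11, an anion transporter, fell from 483, 386 and 441 to 48.4, 24.7 and 42.2. Eepd1, a nuclease-like protein known as a target of the liver X receptor, fell from 551, 589.7 and 664 to 63.0, 61.7 and 72.6. These groups lay apart as well. Kbtbd11 fell by 2.82 (SE 0.17).

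In absolute reads, the gain was led by Rsad2, Irg1 and Rnf213, and the loss by genes of moderate change and high level. Cybb, the core subunit of the phagocyte NADPH oxidase, had 23125, 21057 and 13172 normalised reads untreated and 43258, 64103 and 61593 after LPS, a rise of 1.58 (SE 0.31). Clic4, an intracellular chloride channel family member, had 9202, 10208 and 9871 untreated and 44742, 40929 and 38309 after LPS, a rise of 2.08 (SE 0.19). Sqstm1, the autophagy receptor p62, had 9931, 9598 and 5618 untreated and 40720.2, 40403 and 34843 after LPS, a rise of 2.24 (SE 0.23). The groups of all 3 lay apart. Hspa5, the endoplasmic reticulum chaperone BiP, also gained many reads, but untreated replicate 2 lay near the LPS libraries, at 66376 reads against 74118 to 91990, and its call ended in 6 of the 22 alternatives, with its difference at 0.58 in the lowest.

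Among the losses, Rasgrp3, an activator of RAS, had 5965, 6663 and 11051 normalised reads untreated and 1524, 2180.1 and 1809 after LPS, and fell by 2.04 (SE 0.22). Cd28, the co-stimulatory receptor of T cells, had 10227, 7805 and 5628 untreated and 1715, 3446 and 2781 after LPS, and fell by 1.58 (SE 0.29). Zmynd8, a reader of histone marks, had 5344, 4748 and 5177 untreated and 1210.3, 1431 and 1794 after LPS, and fell by 1.78 (SE 0.18). All 3 were abundant before LPS and remained detectable after it. Of the fallen genes, Scd2, a fatty acid desaturase, lost the most reads, from 3.28e+04, 37399 and 45969 to 19805, 20898 and 20536, a difference of -0.91 (SE 0.21). That call ended without the filter on low values.

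The response was also measured in the Tet2 siRNA cells, from 3 untreated and 2 LPS-treated libraries. The difference between both responses passed for 0 of 12486 genes (limma, 0.0%, smallest adjusted p = 1.00), and 281 genes (2.25%) had an unadjusted p under 0.05. The smallest unadjusted p belonged to Tapbpl, which helps load class I molecules, at 1.86 in control siRNA cells and 0.71 in Tet2 siRNA cells. Mx2 rose by 7.42 in control siRNA cells and had a difference of 5.85 in Tet2 siRNA cells. For Ifit2 these values were 7.92 and 5.87. A difference that does not pass does not show that both responses were alike.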

How the data were processed

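Per the submitters' processing notes, reads were trimmed with Trim Galore 0.3.3, mapped to mm9 with TopHat2 2.0.9 and processed with DESeq2. The counter, strand setting and annotation were not given in the sources used here, so antisense partners and near-identical copies may share reads. The authors deposited 1 table of variance-stabilised log2 values for 26061 genes in 11 libraries, whose lowest value, 4.02, stands for 0 reads. Inverting it gave whole reads for 100.0% of values (within 0.01 read) and normalised reads on the authors' size-factor scale.

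Libraries were grouped by their labels. Genes that exceeded the lowest value by 1 log2 unit or more in at least 2 libraries (12486) were tested with limma 3.58.1 (R 4.3.3) on the deposited log2 values, as 4 group means over all 11 libraries with a variance trend and Benjamini-Hochberg adjustment. Fits were tested on simulated data. Lists, shares and motifs were computed with Python 3.11.15, pandas 2.3.3 and matplotlib 3.10.9, and the exact permutation test with scipy 1.17.1. Promoters (250 bases before the start) were matched for 18077 symbols of the table, 1919 of them through a synonym. In 25 rows the gene name had been turned into a date.

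The genes named were Tet2, the 12 largest increases and decreases, the 10 largest gains and losses of reads, the 10 genes highest after LPS among those at 0 untreated, the 6 with the widest LPS spread, and, per list, up to 4 risen, 3 fallen and 2 not called. Other list members were named after their values were seen. The comparison, its 43 lists and this rule were chosen with earlier results of these data known. The 22 alternatives changed the filter, scaling, variance model, covariates or libraries. A few genes are not reported here.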

Additional observations from a re-analysis of the deposited data

How the results depend on the processing

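Over the 22 alternatives 1281 to 2014 genes rose and 920 to 1700 fell, and no gene called in the main analysis was called in the other direction. Quantile normalisation gave 1333 and 1427, so that 48.3% of calls were increases in place of 55.8%. With voom on the recovered reads 734 genes fell by at least 1 log2 unit in place of 478. Without the filter on low values 10 genes differed between the responses of control and Tet2 siRNA cells, in place of 0. The top 50 genes made up 34.9% of the gain when reads were scaled to library totals, and 19 genes passed a bound of 10-fold with a floor per library. Among genes that rose by at least 1, 14.04% of promoters held a kB match and 10.999% an ISRE. The cause of these shifts was not tested. Of 249 named genes that were called, 212 kept their call in every alternative, and 60 of 82 that were not called stayed so.

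The labels do not say whether replicate numbers pair the libraries. Deviations of untreated and LPS libraries with the same number correlated at -0.13, 0.46 and -0.28 across genes. Deviations from a mean of 3 libraries are bound to each other, so these values cannot decide whether the libraries are paired. With a replicate block 1761 genes rose and 1496 fell. Weights estimated from the data were lowest for untreated replicate 3 (0.204) and LPS replicate 1 (0.281), whose deviations correlated at 0.38. Depth limits the genes at or near 0 reads. Untreated replicate 3 had the fewest reads of the control siRNA libraries, yet it detected the most genes, 16406.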
